A study of Homo sapiens with 414 samples.

Results

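The proteasome genes described here are the 38 genes whose symbols begin with PSMA, PSMB, PSMC or PSMD followed by a digit and whose mean over all libraries was at least 1 TPM (a transcript level corrected for transcript length and library size). They were taken from a table of 19084 gene symbols. PSMA8 and PSMB11, testis and thymus forms of core subunits, also matched the name but averaged 0.026 and 0.022 TPM and were left out, while PSMB9 was the lowest gene inside the limit at 2.35 TPM. PSMC3IP matches by name only, because it codes for a meiotic recombination protein that binds PSMC3, so 37 of the 38 code for subunits or assembly chaperones of the proteasome.

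The proteasome is the barrel-shaped protease that degrades proteins marked with ubiquitin. Its 20S core is built from rings of alpha subunits (PSMA genes) and rings of beta subunits (PSMB genes), of which PSMB5, PSMB6 and PSMB7 carry the peptide-cutting sites. Interferon and other immune signals replace those with the inducible subunits PSMB8, PSMB9 and PSMB10, which cut peptides for presentation on HLA molecules. The 19S cap opens the core and unfolds substrates with ATPases (PSMC genes), while the PSMD genes code for the other cap subunits, including the ubiquitin receptor PSMD4 and the deubiquitinase PSMD14, and for the cap assembly chaperones PSMD5, PSMD9 and PSMD10. When proteasomes are overloaded or inhibited, the transcription factor NFE2L1 (NRF1) is known to raise the subunit genes together through antioxidant response elements, which NFE2L2 (NRF2) also binds. Arsenic and cadmium are metals that attack protein thiols and damage proteins.

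RNA came from H1-NPC cells, which are neural progenitors made from H1, an established line of human embryonic stem cells, and which were plated and dosed together and lysed 1 to 39 days later. The 29 toxic compounds gave 266 libraries and the 16 non-toxic compounds 148, at 1 dose and with 1 library for each compound and day on up to 11 days. Cadmium (50 µM), arsenic (5 µM), okadaic acid (3 nM), busulfan (50 µg/ml), Cytosine Beta-D-arabinofuranoside (5 µM) and vincristine (1 nM) had libraries of days 1, 2, 3, 4 and 6, and maneb (60 µM) of day 1 alone. Lead acetate (30 µM), (trans) Retinoic acid (1.7 µM), isotretinoin (0.5 µg/ml), hydroxyurea (250 µM), dioxin (3 nM), K252a (30 nM) and monosodium glutamate (150 µM) had 11 libraries each, and 5-Fluorouracil (10 µM) had 7. Diazinon (10 µM), amiodarone (1 µg/ml), benzene (50 µg/ml), thalidomide (100 ng/ml) and Bis-I (4 µM) also had 11 each. U0126 (10 µM) and PD166866 (2.5 µM) had 10 each. Toxic compounds counted but not named below were bioallethrin (10 nM), permethrin (2.5 µM), propylthiouracil (25 µg/ml) and carbamazepine (10 µg/ml). So were dexamethasone (100 µM), L-phenylalanine (1 mM) and 2-Imidazolidinethione (0.4 mM). Of the non-toxic compounds named below, ibuprofen (20 µg/ml) had 10 libraries and sorbitol (10 µM) had 8. The non-toxic set, which includes the solvent DMSO at 0.1% along with sugars, polymers and common medicines, gave 7 to 16 libraries a day and 79 over days 1 to 6. All cultures come from 1 cell line, days stand in for replicates, and no separate cultures are named. Each compound fit pools the few libraries of that compound with many non-toxic ones. The SE and p-values therefore rest mostly on the spread of the non-toxic libraries. They do not measure how far the difference of a compound varied from day to day. Under arsenic, for instance, the log2 difference of PSMC1 was 1.358 on day 1 and 0.506 on day 6.

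All 8 neural progenitor markers averaged at least 1 TPM in the day 1 non-toxic libraries, where their sum was 5826 to 6252 TPM. In non-toxic libraries of days 1 to 6 the sum of 5 pluripotency markers was at most 61.1 TPM. The number of genes at 1 TPM or more was 11377 to 17188 over the libraries. Read depth is unknown, because the files hold TPM without counts. The day 4 library of vincristine and the day 8 library of the non-toxic compound ibuprofen stood apart from the libraries around them, and results that rest on them are given with and without them. The day 1 library of monosodium glutamate also stood apart, in the measures given below with maneb, and no fit leaves it out.

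Each difference below is a compound minus the non-toxic libraries of the same days on the log2(TPM + 1) scale, which understates changes of low genes, with its standard error (SE), and is called when the limma p-value, adjusted by Benjamini-Hochberg over 16318 genes, is under 0.05. TPM have the same total in every library, so when some genes take a large share, all others move down. Values are therefore also given centred, that is after subtracting the median deviation of the well expressed genes (mean at least 10 TPM) in each library. Counts printed without a share of all genes describe the counted genes only and are not set against that background. In bulk RNA, fewer cells of a type and less RNA per cell cannot be told apart.

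Promoter windows of 33 genes were found in RefSeq tables (GRCh38.p14, while the expression files use hg19), from 250 bases before to 50 after each annotated start. PSMA7, PSMB1, PSMB6, PSMB7 and PSMD4 are not in them. The windows were searched on both strands for the core of the antioxidant response element (TGACNNNGC), for paired heat shock units (GAANNTTC or TTCNNGAA, each the same on both strands) and for the core of the metal response element (TGCGCNC). The antioxidant core was in 10 of the 33 genes (30.3%), against 16.1% of the 27305 genes in the table. Heat shock pairs were in 4 (12.1%), against 16.2%, and the metal core in 10 (30.3%), against 23% of all genes.

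Printed here are the window of PSMC1, the ATPase gene that rose most under arsenic and that has no antioxidant core, and those of 3 genes that hold the core and lie at the extremes of their role under cadmium. PSMC1 lies at chr14:90256303-90256602 on the plus strand. PSMC5 lies at chr17:63827471-63827770 on the plus strand with the core starting at -57 from the annotated start (the window of another PSMC5 start has none), PSMB9 at chr6:32853942-32854241 on the plus strand with the core at -148, and PSMD5 at chr9:120842873-120843172 on the minus strand with the core at -134. Each sequence is given 5′ to 3′ on the strand of its gene, and capitals mark the antioxidant core, which may be on the opposite strand. A match describes letters in the window and not a bound site, and no match says only that these letters are not in this window.
PSMC1: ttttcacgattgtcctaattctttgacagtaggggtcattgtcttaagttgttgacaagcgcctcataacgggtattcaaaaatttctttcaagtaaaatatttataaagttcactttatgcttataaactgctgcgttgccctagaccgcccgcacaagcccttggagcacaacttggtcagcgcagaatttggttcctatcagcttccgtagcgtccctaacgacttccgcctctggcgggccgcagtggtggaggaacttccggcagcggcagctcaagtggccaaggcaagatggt
PSMC5: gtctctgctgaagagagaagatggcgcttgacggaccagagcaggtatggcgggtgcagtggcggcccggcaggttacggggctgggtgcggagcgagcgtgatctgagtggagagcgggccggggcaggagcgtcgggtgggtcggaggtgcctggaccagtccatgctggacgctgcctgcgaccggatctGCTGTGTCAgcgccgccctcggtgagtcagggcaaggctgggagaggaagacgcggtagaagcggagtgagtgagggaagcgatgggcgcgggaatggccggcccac
PSMB9: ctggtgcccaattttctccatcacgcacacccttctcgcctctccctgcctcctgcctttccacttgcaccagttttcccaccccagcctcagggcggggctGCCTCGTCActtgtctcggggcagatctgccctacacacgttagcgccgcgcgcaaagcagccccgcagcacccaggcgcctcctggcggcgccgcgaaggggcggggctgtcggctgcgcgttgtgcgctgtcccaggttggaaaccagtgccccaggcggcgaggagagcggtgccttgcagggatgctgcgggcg
PSMD5: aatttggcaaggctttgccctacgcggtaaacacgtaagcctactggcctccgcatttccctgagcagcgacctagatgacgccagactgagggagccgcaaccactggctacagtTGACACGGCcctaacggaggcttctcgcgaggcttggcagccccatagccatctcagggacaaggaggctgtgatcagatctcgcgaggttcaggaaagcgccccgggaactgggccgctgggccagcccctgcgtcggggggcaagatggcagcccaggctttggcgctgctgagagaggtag

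Arsenic raised the proteasome genes almost as a whole. Of the 38 genes 34 were called higher, 2 lower and 2 did not pass, with a median difference of 0.54, whereas 34.8% of all genes tested were called higher, 46.8% lower, and the median of the well expressed genes was -0.36. After centring 37 were called higher and 1 lower, against 53.7% and 31.8% of all genes, with a median of 0.90. The summed level of the 38 genes was 10507, 9740, 8913, 8290 and 7895 TPM on days 1, 2, 3, 4 and 6 in the arsenic libraries, while the non-toxic mean was 6877 TPM on day 1 and 6146 TPM on day 6. On all 5 days 21 genes lay above every same-day non-toxic library, as did 13.9% of all genes tested, and 2 lay below, as did 26.8%.

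**Figure D1:**
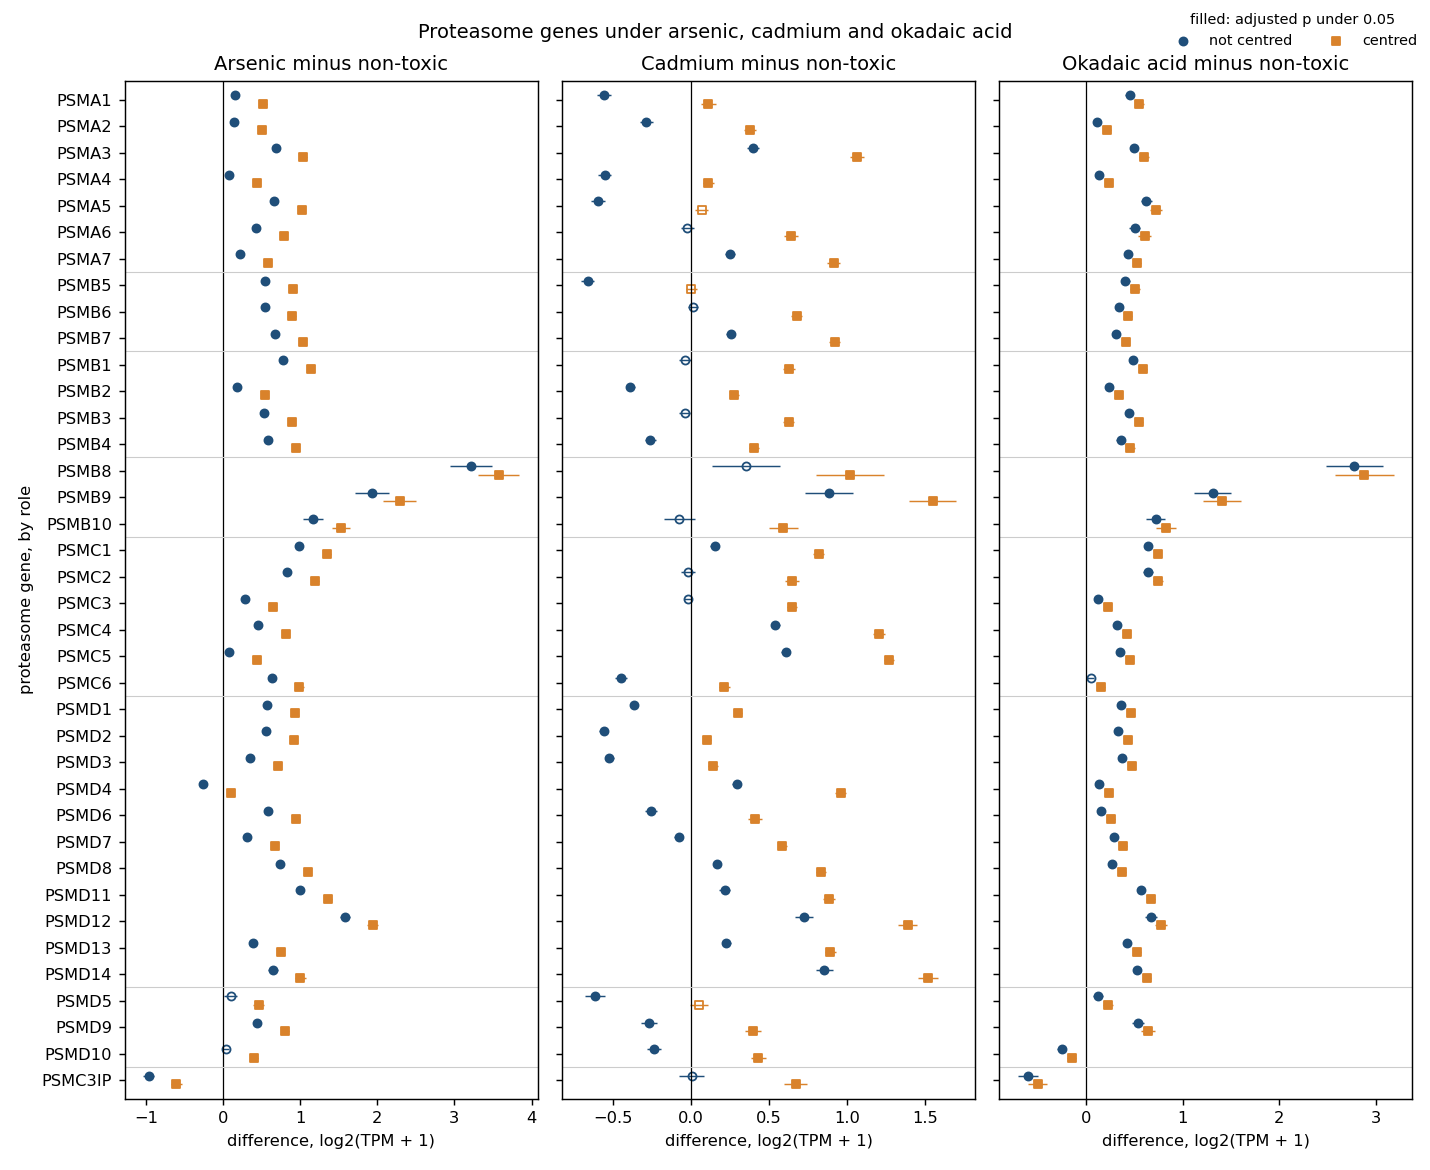
Difference of each of the 38 genes from the same-day non-toxic libraries under arsenic, cadmium and okadaic acid (x axis, log2(TPM + 1) scale; error bars, SE; 5 libraries a compound), by role from the alpha ring at the top to PSMC3IP at the bottom. Circles are not centred and squares are centred; filled symbols have an adjusted p under 0.05. Arsenic and okadaic acid points lie mostly right of 0 either way, while the cadmium circles fall on both sides of 0 and its squares right of 0 or on it.

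Among the ATPases of the 19S base all 6 genes rose. PSMC1 (RPT2) rose most, at 564, 526, 394, 341 and 292 TPM on days 1, 2, 3, 4 and 6 in arsenic libraries, against 190 to 235 TPM in non-toxic libraries (median 206). Every arsenic library was above every non-toxic one, and the excess shrank with each day. The difference was 0.98 ± 0.04 (SE; adjusted p = 3.56e-35). PSMC5 (RPT6) rose least, by 0.08 ± 0.02 (adjusted p = 0.00268), and its 336, 274, 272, 282 and 244 TPM in arsenic libraries overlapped the 221 to 309 TPM of non-toxic libraries. That small rise was 0.00 once the trend of each library with transcript length was removed (adjusted p = 0.979).

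Of the 11 other cap subunits 10 rose and PSMD4 fell. PSMD12 (RPN5), a scaffold subunit of the lid, had 268, 241, 186, 138 and 104 TPM in arsenic libraries, against 43.6 to 73.2 TPM in non-toxic libraries. The groups did not overlap, and the difference of 1.58 ± 0.07 (adjusted p = 2.91e-36) was the highest outside the inducible beta genes. PSMD11 (RPN6), a neighbouring lid scaffold, rose by 1.00 ± 0.05 (adjusted p = 9.84e-33). PSMD4 (RPN10), the ubiquitin receptor, had 210, 183, 203, 205 and 202 TPM in arsenic libraries, below the 212 to 262 TPM of all non-toxic libraries, a difference of -0.26 ± 0.03 (adjusted p = 3.03e-13). Its sign turned with centring, to 0.10 (adjusted p = 0.00440).

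The cap chaperones were mixed. PSMD9 (p27) rose by 0.44 ± 0.05 (adjusted p = 2.46e-12), while PSMD5 (S5b) and PSMD10 (gankyrin) differed by 0.10 ± 0.08 (adjusted p = 0.272) and 0.04 ± 0.04 (adjusted p = 0.414). PSMD5 lay below the non-toxic range on day 1, at 14.2 TPM in the arsenic library, and above it on 2 days, with 35.1 TPM on day 6. PSMC3IP, which is no subunit, fell by 0.97 on the log2 scale (SE 0.07; adjusted p = 3.54e-24), and was below every same-day non-toxic library on all 5 days.

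All 7 alpha genes rose, by a median of 0.22 (0.58 centred). PSMA3 rose most, by 0.68 ± 0.04 (adjusted p = 1.05e-28), with 239 to 268 TPM in arsenic libraries and 132 to 207 TPM in non-toxic libraries. Its arsenic levels hardly moved over the days. PSMA4 rose least, by 0.07 ± 0.03 (adjusted p = 0.0235), a call that was lost without the library of day 3 (adjusted p = 0.0709) or day 4 (adjusted p = 0.224). The 7 constitutive beta genes rose too, with medians of 0.54 for the 3 catalytic genes and 0.56 for the 4 others. PSMB7, the trypsin-like site, had 622, 542, 481, 463 and 396 TPM in arsenic libraries, above the 283 to 342 TPM of non-toxic libraries (0.67 ± 0.04, adjusted p = 3.98e-29). PSMB6, the caspase-like site, rose by 0.54 ± 0.04 (adjusted p = 1.03e-23). Of the other beta genes, PSMB1 rose most (0.78 ± 0.03, adjusted p = 1.86e-37) and PSMB2 least (0.18 ± 0.03, adjusted p = 2.28e-08).

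The inducible beta genes rose by more than any constitutive subunit except PSMD12, and along another course. PSMB8 (LMP7) had 9.52 TPM on day 1 in arsenic libraries, then 29.4, 26.4, 28.4 and, on day 6, 58.0 TPM, against 0 to 10.0 TPM in non-toxic libraries (median 1.96). PSMB10 (MECL-1) had 17.4 TPM on day 1, below the same-day non-toxic range, and 42.5, 67.5, 56.2 and 92.2 TPM on days 2, 3, 4 and 6, against 14.1 to 30.3 TPM in non-toxic libraries. PSMB9 (LMP2) was listed at 0 on day 1 and reached 2.74, 8.19, 3.51 and 13.1 TPM on the later days in arsenic libraries, against 0 to 1.98 TPM in non-toxic libraries. Thus all 3 were inside or below the same-day non-toxic range on day 1 and above it on each later day. Their differences over the 5 days were 3.21 ± 0.27 (PSMB8, adjusted p = 5.33e-19), 1.17 ± 0.13 (PSMB10, adjusted p = 1.62e-13) and 1.93 ± 0.22 (PSMB9, adjusted p = 9.64e-13).

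**Figure D2:**
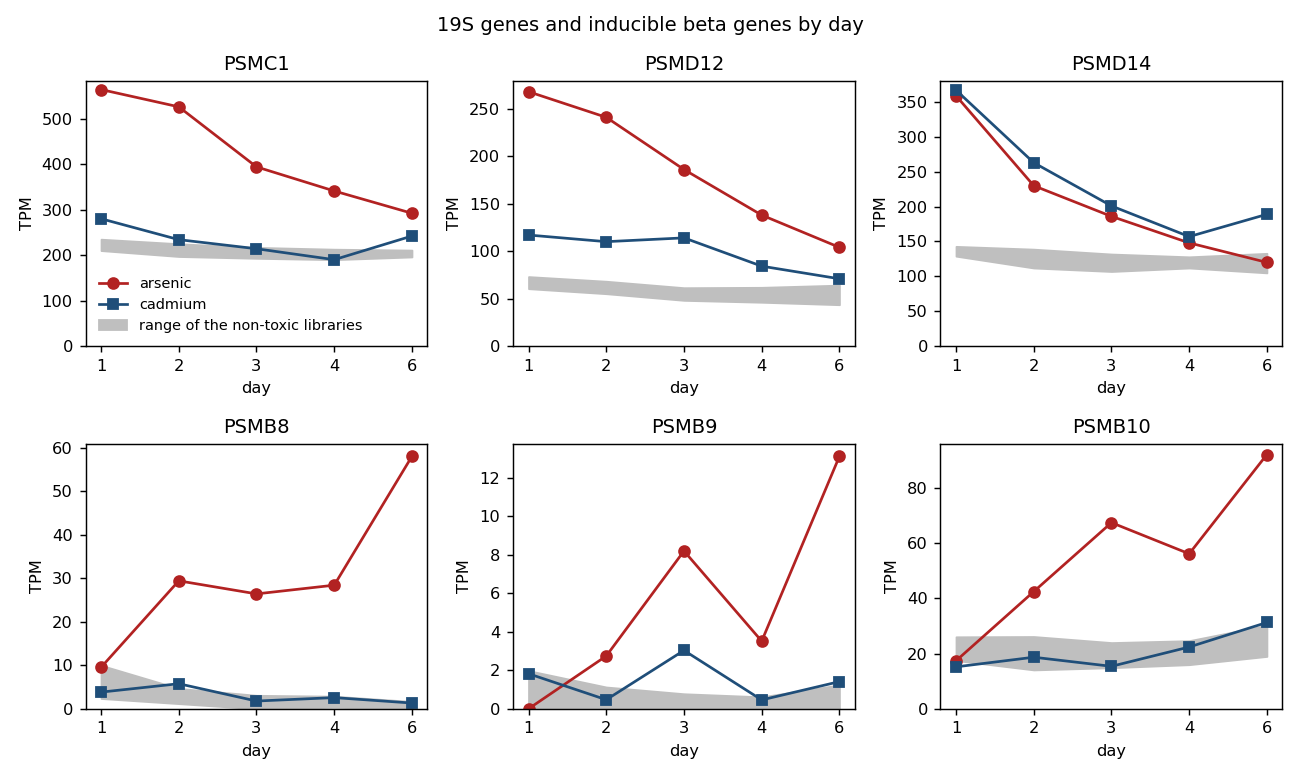
Levels (y axis, TPM) of 3 cap genes (PSMC1, PSMD12, PSMD14) and the 3 inducible beta genes (PSMB8, PSMB9, PSMB10) by day (x axis) in arsenic libraries (circles), cadmium libraries (squares) and the range of the same-day non-toxic libraries (grey), 1 library for each compound and day. Under arsenic the cap genes are highest on day 1 (PSMC1 at 564 TPM) and the inducible genes on day 6 (PSMB8 at 58.0 TPM).

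The day of the largest excess over non-toxic libraries was day 1 for 16 genes and day 6 for 7 under arsenic. The excess shrank at every step for 8 genes (PSMB6, PSMB7, PSMC1, PSMC2, PSMC6, PSMD12, PSMD13 and PSMD14) and grew at every step for PSMA3, PSMB8 and PSMD5. With 1 library a day these courses carry no test. The excess of PSMD14 ended inside the non-toxic range, with 359 TPM on day 1 and 120 TPM on day 6 in arsenic libraries.

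Genes that act with the proteasome were counted from lists of known partners. POMP, which matures the core, rose by 1.29 ± 0.04 (adjusted p = 4.68e-48) with 235 to 312 TPM in arsenic libraries and 96.8 to 128 TPM in non-toxic libraries, while 4 of the 6 assembly genes fell without centring and 0 with it, PSMG4 by 0.47 on the log2 scale (centred -0.10). ADRM1 (RPN13), a ubiquitin receptor of the cap, rose by 1.10 ± 0.05 (adjusted p = 3.74e-38), and it was among the 6 of 7 cap-associated genes that rose. Of 10 genes of the NRF1 pathway 8 rose and 1 fell, led by the small MAF protein MAFF (4.47 ± 0.14), with NFE2L2 at 1.95 ± 0.06 and NFE2L1 at 0.29 ± 0.02. Among ubiquitin and shuttle genes 6 of 14 rose and 5 fell (10 and 3 with centring). ZFAND2A (AIRAP), an arsenite-inducible proteasome partner, had 3202, 1450, 778, 633 and 196 TPM in arsenic libraries against 15.6 to 41.9 TPM in non-toxic libraries.

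Other large particles were counted as well. Of the 9 genes of the COP9 signalosome, a lid-like complex, 3 rose and 5 fell (median -0.12), with 7 higher and 1 lower after centring. Of the 8 genes of the TCP1 chaperonin, which folds actin and tubulin, 6 rose and 2 fell (median 0.26), with 8 higher after centring. Of 11 antigen presentation genes 10 rose, led by the interferon factor IRF1 (2.64 ± 0.13), which had 11.1 TPM on day 1 and 39.1 TPM on day 6 in arsenic libraries, and of the 5 genes for other caps of the core and its inhibitor 2 rose and 2 fell. Of these PSME1 and PSME2, the interferon-inducible activator, differed by 0.02 (not passed) and 0.32, the activator gene PSME4 (PA200) by 0.80 and PSME3 (PA28 gamma) by -0.56, and the inhibitor gene PSMF1 by -0.31 (centred 0.38, 0.68, 1.17, -0.20 and 0.05, the last not called). The sum of 5 mesenchymal markers ran from 2243 to 19437 TPM in arsenic libraries against 466 to 2584 TPM in non-toxic libraries, with all 5 detected, and the sum of 6 neuron markers from 843 to 1514 TPM against 2391 to 6238 TPM. The slope of each arsenic library on log2 transcript length was between -0.0603 and -0.231, against -0.0126 to 0.0124 in non-toxic libraries of those days. The part of these shifts in the inducible genes was not tested. With length trend removed and centring, 36 genes were called higher and 1 lower.

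Cadmium gave a split picture that depended on scaling. Of the 38 genes 13 were called higher (24.6% of all genes), 16 lower (59.4% of all genes) and 9 did not pass, with a median of -0.03. The well expressed genes had a median of -0.67, so after centring 35 genes were called higher and 0 lower (55.1% and 29.6% of all genes), with a median of 0.64. Cadmium libraries held 9.86% to 18.5% of all TPM in their 10 highest genes, against 5.62% to 6.92% in non-toxic libraries of those days. The summed level of the 38 genes was 7277, 6684, 5977, 5882 and 6506 TPM on days 1, 2, 3, 4 and 6. In the non-toxic libraries of those days the means were 6877, 6525, 6231, 6160 and 6146 TPM. The cadmium sum was above the non-toxic mean on days 1, 2 and 6 and below it on days 3 and 4. The progenitor markers summed to 2159 to 3978 TPM in cadmium libraries against 3801 to 6252 TPM in non-toxic libraries and the neuron markers to 2933 to 5018 TPM against 2391 to 6238 TPM, and the part of these shifts in the proteasome values was not tested.

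**Figure D3:**
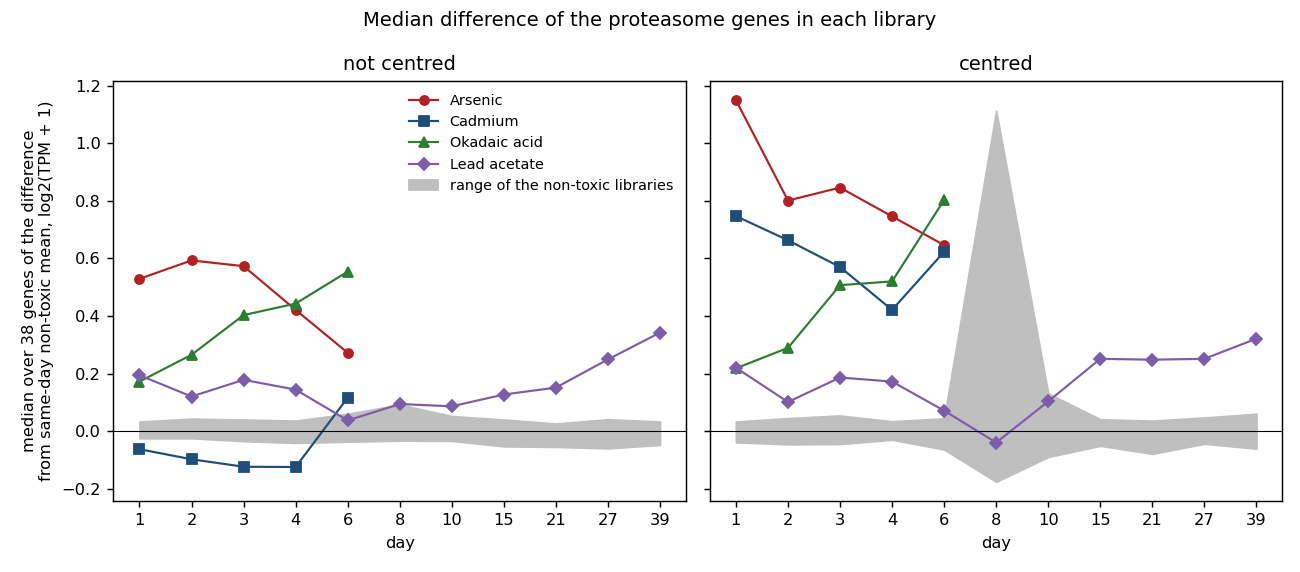
Median over the 38 genes of the difference from the same-day non-toxic mean (y axis, log2(TPM + 1)) in each library of arsenic, cadmium, okadaic acid and lead acetate by day (x axis), not centred on the left and centred on the right; grey, range over non-toxic libraries. Cadmium lies between -0.125 and 0.116 without centring and between 0.42 and 0.75 with it. The wide grey range on day 8 of the centred panel is the ibuprofen library at 1.11.

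The genes did not move together under cadmium. On all 5 days 8 genes (PSMA3, PSMB7, PSMC4, PSMC5, PSMD4, PSMD8, PSMD12 and PSMD14) were above every same-day non-toxic library. That is 21.1% of the 38, against 10.3% of all genes tested. Another 8 (PSMA1, PSMB2, PSMB5, PSMC6, PSMD1, PSMD2, PSMD3 and PSMD5) were below on all 5 days, 21.1% against 37.9% of all genes. Genes of the alpha ring, the beta ring, the ATPase base and the rest of the cap were found in both sets. With centring 27 genes were above on all 5 days and 0 below, against 29.3% and 10.9% of all genes.

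In the 19S base PSMC5 rose most. It had 425, 462, 437, 357 and 353 TPM in cadmium libraries and 221 to 309 TPM in non-toxic libraries, with no overlap, a difference of 0.61 ± 0.03 (adjusted p = 9.26e-37; centred 1.27). PSMC6 (RPT4) was lowest, with 91.6, 76.8, 72.2, 76.8 and 90.6 TPM in cadmium libraries against 92.0 to 131 TPM in non-toxic libraries. Its difference of -0.45 ± 0.04 (adjusted p = 1.72e-18) became 0.22 after centring. PSMC1 had 280, 234, 214, 190 and 242 TPM in cadmium libraries, above the same-day non-toxic range on 3 days, with a difference of 0.15 ± 0.03 (adjusted p = 1.18e-06; centred 0.82). Against the DMSO libraries alone that call was lost (0.11, adjusted p = 0.273).

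PSMD14 (RPN11), the deubiquitinase of the lid, was the highest cap gene. It had 367, 263, 201, 157 and 189 TPM in cadmium libraries against 105 to 143 TPM in non-toxic libraries, with no overlap (0.86 ± 0.05, adjusted p = 1.59e-26; centred 1.52). PSMD2 (RPN1), a scaffold of the base that docks ubiquitin shuttles, was the lowest, with 172, 184, 198, 187 and 215 TPM in cadmium libraries and 255 to 325 TPM in non-toxic libraries. Its difference of -0.56 ± 0.03 (adjusted p = 1.10e-33) turned to 0.11 after centring. Of the 11 other cap genes 6 rose and 5 fell without centring, and all 11 were called higher with it. The 3 cap chaperones fell, PSMD5 by 0.62 on the log2 scale (SE 0.06; adjusted p = 1.04e-14) and PSMD10 by 0.23 (SE 0.04; adjusted p = 1.75e-06), and centring moved them to 0.05 and 0.43.

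In the core, PSMB5, the chymotrypsin-like site, was the lowest of all 38 genes, with 149, 136 and 146 TPM on days 1, 2 and 4, its lowest level on day 3 and 201 TPM on day 6 in cadmium libraries, against 207 to 283 TPM in non-toxic libraries. The groups did not overlap (-0.66 ± 0.04, adjusted p = 3.41e-25), and centring took the difference to 0.00 (adjusted p = 0.930). PSMB7 stood the other way, with 396, 394, 369, 346 and 353 TPM in cadmium libraries, above the 283 to 342 TPM of non-toxic libraries (0.26 ± 0.03, adjusted p = 8.04e-14; centred 0.92). Among the other beta genes PSMB1 differed by -0.04 ± 0.04 (adjusted p = 0.342) and PSMB2 by -0.39 ± 0.03 (adjusted p = 6.53e-21), which became 0.63 and 0.28 with centring. In the alpha ring PSMA3 rose by 0.40 ± 0.04 (adjusted p = 2.05e-15; centred 1.06), whereas PSMA5 fell by 0.60 on the log2 scale (SE 0.04; adjusted p = 1.66e-22; centred 0.07, adjusted p = 0.0975).

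Among the inducible genes PSMB9 was the one called under cadmium without centring. PSMB9 had 1.82, 0.47, 3.03, 0.46 and 1.41 TPM in cadmium libraries against 0 to 1.98 TPM in non-toxic libraries, and was above the same-day range on 2 days. Its difference of 0.89 ± 0.15 (adjusted p = 1.65e-07; centred 1.55) is the highest of the 38, at levels near the 1 TPM pseudocount. PSMB8 and PSMB10 did not pass (0.35 ± 0.22, adjusted p = 0.129, and -0.07 ± 0.10, adjusted p = 0.486), and centred they were called higher at 1.02 and 0.59. PSMC3IP differed by 0.01 ± 0.08 (adjusted p = 0.950), with 61.8 TPM on day 6 and 32.1 to 42.2 TPM on the other days, and without the day 6 library it was -0.21 (adjusted p = 0.000652).

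Several partners had larger differences under cadmium than any of the 38 genes. ZFAND2A had 2798, 2102, 1485, 959 and 1688 TPM in cadmium libraries against 15.6 to 41.9 TPM in non-toxic libraries (6.06 ± 0.11), and BAG3, a chaperone cofactor of the shuttle list, rose by 5.46 ± 0.08. MAFF rose by 4.09 ± 0.10, SQSTM1 (p62) by 2.05 ± 0.03, POMP by 0.63 ± 0.04 and ADRM1 by 0.59 ± 0.04, and all of these stayed higher after centring. NFE2L1 itself fell, with 62.4, 72.9, 88.0, 107 and 128 TPM in cadmium libraries against 150 to 174 TPM in non-toxic libraries (-0.85 ± 0.05; centred -0.19). Of the 8 chaperonin genes 5 were higher and 2 lower (8 higher centred). The COP9 genes were lower in 9 of 9 (median -0.64), and with centring 4 were higher and 2 lower. Of 11 antigen presentation genes 5 rose and 5 fell, HLA-B by 2.17 and ERAP1 by -1.38. Of the activators and the inhibitor of the core, PSME4 (0.26) and PSME2 (0.21) rose and PSME3 (-1.27), PSMF1 (-0.91) and PSME1 (-0.27) fell.

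The difference between the metals was tested directly, at unequal doses. In cadmium minus arsenic 4 genes were higher (25.6% of all genes) and 32 lower (45.8% of all genes), with a median of -0.67, and after centring 7 were higher and 25 lower (41.7% and 31.4% of all genes), with a median of -0.36. PSMB8 differed most (-2.86 ± 0.37, adjusted p = 4.09e-11), followed by PSMA5 (-1.25 ± 0.06), PSMB10 (-1.24 ± 0.18) and PSMB5 (-1.20 ± 0.06), all lower in cadmium with centring too. PSMC1 was lower in cadmium by -0.83 ± 0.06 (adjusted p = 6.15e-21; centred -0.53). Higher in cadmium either way were PSMC3IP (0.97 ± 0.11), the ubiquitin receptor PSMD4 (0.55 ± 0.04), the ATPase PSMC5 (0.53 ± 0.04) and PSMD14 (0.22 ± 0.10, adjusted p = 0.0468). The non-toxic libraries served in both contrasts with the metals, so their likeness is given only as each metal's own values.

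Of the 10 genes with the antioxidant core in the promoter window (PSMA4, PSMB3, PSMB9, PSMC4, PSMC5, PSMD1, PSMD3, PSMD5, PSMD9 and PSMD12) 4 rose, 5 fell and 1 did not pass under cadmium, and of the 23 with a window but no core 6 rose, 11 fell and 6 did not pass. With centring 9 of the 10 and 21 of the 23 were called higher under cadmium and 0 lower in either set. Of the 5 genes with no window, 3 rose and 0 fell under cadmium (5 higher centred). Under arsenic 9 of the 10, 21 of the 23 and 4 of the 5 rose, and with centring 10, 22 and 5. The genes with the core include the highest base gene of cadmium, PSMC5 (the window of its other start has none), and the lowest chaperone, PSMD5. They also include PSMD12, which rose by 1.58 under arsenic. PSMC1, at 564 TPM on day 1 under arsenic, has no core in its window. These single genes were picked by their values, and a link between the core and the changes was not tested.

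Okadaic acid, an inhibitor of protein phosphatases, moved nearly all of the genes. Of the 38 genes 35 were called higher (35.1% of all genes) and 2 lower (39.8% of all genes), with a median of 0.37 and, centred, 36 higher and 2 lower with a median of 0.47. Against the DMSO libraries alone 23 were higher and 0 lower. The centred counts and those against DMSO are not set against the share over all genes. The excess was larger on later days. The median over the 38 genes was 0.17, 0.27, 0.40, 0.44 and 0.55 in the libraries of days 1, 2, 3, 4 and 6, and 25 genes had their largest excess on day 6. The slope of these libraries on transcript length was -0.0274 on day 1 and -0.221 on day 6, and with length trend removed and centring 36 were higher and 2 lower.

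PSMC1 had 269, 311, 327, 348 and 369 TPM in okadaic acid libraries against 190 to 235 TPM in non-toxic libraries, above the range on all days (0.64 ± 0.03, adjusted p = 3.35e-31). The 3 largest differences were those of the inducible genes. PSMB8 had 7.13, 9.11, 15.1, 37.5 and 65.8 TPM in okadaic acid libraries against 0 to 10.0 TPM in non-toxic libraries (2.78 ± 0.30, adjusted p = 8.49e-14), PSMB9 differed by 1.31 ± 0.19 and PSMB10 by 0.72 ± 0.10. At the other end were PSMC3IP (-0.60 ± 0.10, adjusted p = 1.28e-07), PSMD10 (-0.25 ± 0.05, adjusted p = 2.17e-06) and PSMC6 (0.05 ± 0.04, adjusted p = 0.237). PSMC3IP ran from 69.6 TPM on day 1, above the non-toxic range, down to 11.8 TPM on day 6.

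Of the partner lists, antigen presentation moved most. All 11 antigen presentation genes rose, with the HLA light chain B2M at 405 TPM on day 1 and 2370 TPM on day 6 in okadaic acid libraries against 61.9 to 212 TPM in non-toxic libraries. POMP rose by 0.85 ± 0.05, ADRM1 by 0.59 ± 0.05 and MAFF by 3.18 ± 0.14, and 9 of 10 NRF1 pathway genes rose. ZFAND2A, which reached 3202 TPM under arsenic and 2798 TPM under cadmium, had 20.9 to 54.5 TPM in okadaic acid libraries (0.42 ± 0.09). Of the 8 chaperonin genes 2 rose and 3 fell, and 5 rose with centring. The progenitor markers summed to 5026 to 8656 TPM in okadaic acid libraries and the neuron markers to 1302 to 2125 TPM, against 3801 to 6252 and 2391 to 6238 TPM in non-toxic libraries. The progenitor sum was carried by VIM, with a median of 5445 TPM in okadaic acid libraries and 2663 TPM in non-toxic libraries. NES had medians of 1462 TPM in okadaic acid libraries and 1444 TPM in non-toxic libraries, and the other 6 progenitor markers had lower medians in okadaic acid libraries, among them FABP7 at 38.4 TPM against 172 TPM and MSI1 at 109 TPM against 321 TPM. The part of these shifts in the okadaic acid results was not tested.

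Of the remaining toxic compounds 10 moved at least 10 of the 38 genes in 1 direction, mostly by small amounts. Lead acetate, also a metal, raised 29 genes (19.6% of all genes) and lowered PSMB9, with a median of 0.13. With centring 27 were higher, a count not set against the share over all genes. PSMC1 ran from 183 to 247 TPM in lead libraries, median 203, and was above the same-day non-toxic range on 8 of 11 days, against 133 to 235 TPM over all non-toxic days (0.13 ± 0.02, adjusted p = 2.90e-07). PSMB10 (0.39 ± 0.08), PSMD11 (0.36 ± 0.08) and PSMC2 (0.28 ± 0.05) were highest, and PSMB9 (-0.37 ± 0.13, adjusted p = 0.0105), PSMC3IP (-0.03 ± 0.05) and PSMD10 (-0.02 ± 0.03) lowest, of which PSMB9 alone was called. The library medians were largest on day 39, at 0.34, and smallest on day 6, at 0.04.

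Under Cytosine Beta-D-arabinofuranoside, hydroxyurea and busulfan, which block DNA synthesis or damage DNA, PSMB8 was the gene with the largest difference. PSMB8 was also the highest gene under arsenic, okadaic acid, (trans) Retinoic acid and isotretinoin, while under 5-Fluorouracil the highest was PSMD12 (0.44). Cytosine Beta-D-arabinofuranoside raised 23 genes (40.9% of all genes), with PSMB8 at 11.4, 10.6, 29.9, 33.2 and 32.2 TPM against 0 to 10.0 TPM in non-toxic libraries (2.89 ± 0.27, adjusted p = 1.19e-16), above the same-day range on every day. PSMB9 rose by 1.95 ± 0.18 and PSMC3IP by 0.88 ± 0.07, whereas PSMB7 (-0.27 ± 0.03), PSMC6 (-0.10 ± 0.04) and PSMD3 (-0.09 ± 0.03) fell and PSMC1 differed by 0.03 ± 0.02 (adjusted p = 0.250). Hydroxyurea raised 18 genes (28.9% of all genes), PSMB8 by 1.71 ± 0.16, PSMB9 by 0.81 ± 0.12 and PSMC3IP by 0.71 ± 0.06, and lowered PSMD10 (-0.23 ± 0.03), PSMA6 (-0.13 ± 0.03) and PSMB7 (-0.11 ± 0.02). There PSMC1 differed by 0.05 ± 0.02 (adjusted p = 0.0559). Of the 28 compounds tested Cytosine Beta-D-arabinofuranoside and hydroxyurea were the 2 under which PSMC3IP was called higher without centring. Without vincristine day 4 and ibuprofen it was called higher under vincristine too (0.19, adjusted p = 0.0415). Under busulfan PSMC3IP did not pass (0.136, adjusted p = 0.168) but was called higher with centring (0.205, adjusted p = 0.0409). It lay above the same-day range on 3 of 5 busulfan days and below it on 1.

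Busulfan raised 28 genes and lowered 0 (29.5% of all genes higher), with PSMB8 (2.25 ± 0.27), PSMB9 (1.07 ± 0.16) and PSMB10 (0.71 ± 0.10) at the top. PSMB7 (-0.06), PSMC6 (-0.05) and PSMC3 (-0.03) were lowest and not called, and PSMC1 rose by 0.19 ± 0.03. The day 3 library had a median over the 38 genes of 0.46, the other days 0.04 to 0.13. Without that library 19 genes were called higher, a count not set against the share over all genes. 5-Fluorouracil raised 27 genes (39.6% of all genes) and lowered 2. After centring 16 were higher and 9 lower, counts that are not set against the share over all genes. PSMD12 (0.44 ± 0.05), PSMB10 (0.43 ± 0.08) and PSMD8 (0.37 ± 0.03) were highest there, PSMC1 rose by 0.27 ± 0.03, and PSMB9 (-0.77 ± 0.16), PSMB7 (-0.14 ± 0.03) and PSMC3IP (-0.13 ± 0.06, not called) were lowest. PSMB9 under 5-Fluorouracil reached 1.68 TPM on day 39, against 5.71 to 21.7 TPM in day 39 non-toxic libraries.

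Under the retinoids the inducible pair PSMB8 and PSMB9 led. (trans) Retinoic acid raised 24 genes (21.2% of all genes), PSMB8 by 1.37 ± 0.15, PSMB9 by 1.00 ± 0.14 and PSMA4 by 0.26 ± 0.03, with PSMC1 at 0.05 ± 0.02 (adjusted p = 0.0294). PSMC3IP (-0.32 ± 0.06) and PSMB10 (-0.20 ± 0.09, adjusted p = 0.0443) fell, and PSMD11 was at -0.07 ± 0.08. Isotretinoin raised 12 genes (20.2% of all genes), PSMB8 by 0.97 ± 0.15, PSMB9 by 0.48 ± 0.13 and PSMC6 by 0.19 ± 0.03. It lowered PSMC3IP (-0.26 ± 0.06) and PSMB2 (-0.08 ± 0.02), while PSMB10 (-0.13 ± 0.08) and PSMC1 (0.01 ± 0.02) did not pass.

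Dioxin raised 13 genes and lowered 0, where 2.95% of all genes were called higher. PSMB6 (0.20 ± 0.05, adjusted p = 0.00846), PSMB3 (0.19 ± 0.07) and PSMB1 (0.17 ± 0.05) differed most, PSMC1 rose by 0.08 ± 0.02, and PSMD12, PSMD5 and PSMD11 were lowest at -0.17, -0.17 and -0.14, not called. Its libraries of days 15 and 21 had length slopes of -0.182 each, and with the length trend removed 7 genes were called. K252a, a kinase inhibitor, raised 10 genes (18.7% of all genes), PSMD9 by 0.23 ± 0.05, PSMD11 by 0.19 ± 0.08, PSMB1 by 0.16 ± 0.04 and PSMC1 by 0.15 ± 0.02. PSMB9 fell (-0.61 ± 0.13), with PSMB8 (-0.23 ± 0.16) and PSMA6 (-0.03 ± 0.03) next and not called.

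Vincristine lowered more genes than it raised, with 19 lower (37.9% of all genes) and 7 higher (33.1% of all genes), and this rested on 1 library. PSMA1 was lowest (-0.66 ± 0.18, adjusted p = 0.000747), at 14 TPM on day 4 and 175 to 226 TPM on the other days in vincristine libraries, against 151 to 213 TPM in non-toxic libraries. PSMB4 and PSMD6 followed at -0.47 each, PSMC1 differed by -0.12 ± 0.07 (adjusted p = 0.130), and PSMB8 (1.06 ± 0.26), PSMD5 (0.42 ± 0.10) and PSMD9 (0.36 ± 0.06) were highest. Without the day 4 library 0 genes were lower and 14 higher, counts not set against the share over all genes. PSMC1 was then called higher (0.15 ± 0.03, adjusted p = 5.62e-05), and PSMA1 (0.07), PSMB8 (0.48) and PSMD5 (0.05) were not called. In that library the summed level was 2908 TPM and the 10 highest genes held 19.9% of all TPM.

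**Figure D4:**
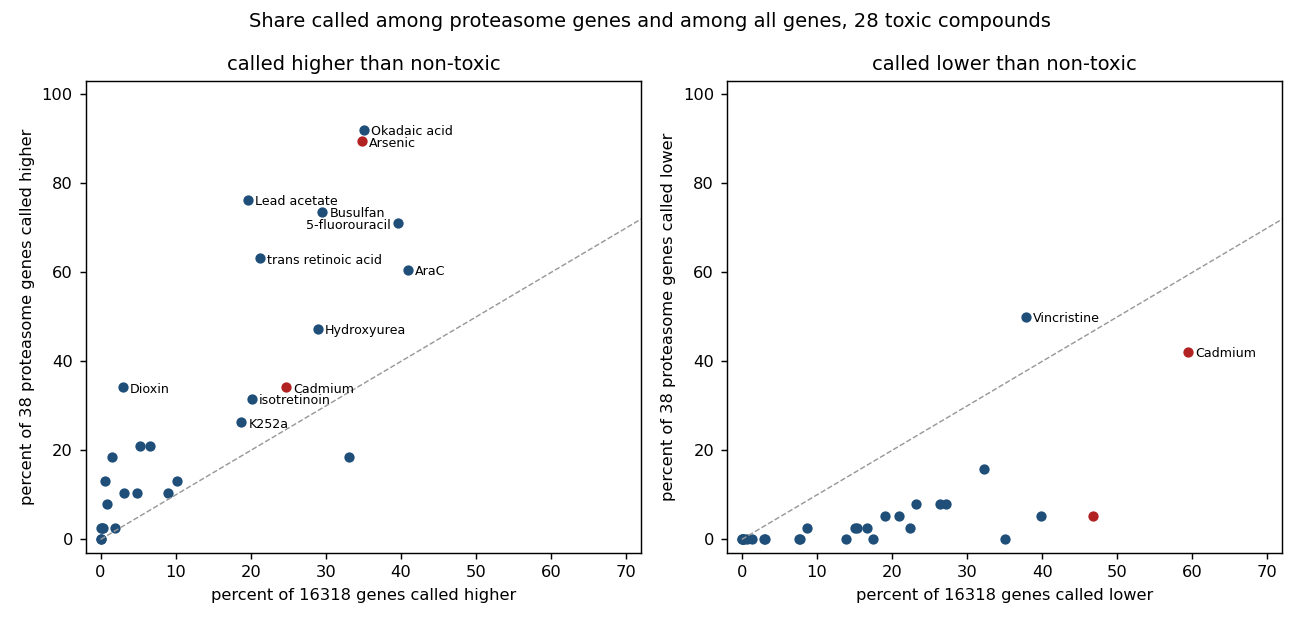
Share of the 38 proteasome genes called higher (left) or lower (right) than non-toxic libraries (y axis, percent) against the share of all 16318 genes called the same way (x axis, percent), 1 point for each of 28 toxic compounds without centring; the dashed line marks equal shares, arsenic and cadmium are in red, and compounds with at least 10 genes called are named. Okadaic acid (92.1%) and arsenic (89.5%) lie highest on the left, and cadmium lies below the line on the right, at 42.1% against 59.4%.

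The other 15 toxic compounds moved at most 8 genes up and at most 6 down, and 2 of them moved none. These counts depended on the ibuprofen controls. Without them 7 of the 15 reached at least 10 genes, namely diazinon with 17 higher (3.05% of all genes), amiodarone with 15 (7.52%), benzene with 14 (7.64%), thalidomide with 13 (4.08%), U0126 with 13 (9.48%), monosodium glutamate with 11 (1.7%) and Bis-I with 12 lower (40.6%). The glutamate count includes its day 1 library, which stood apart.

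Without the ibuprofen controls the counts of higher genes were 31 under lead acetate, 25 under (trans) Retinoic acid, 14 under isotretinoin, 22 under hydroxyurea, 16 under dioxin, 14 under K252a and 26 under 5-Fluorouracil, and dioxin then had 3 genes lower. None of these counts is set against the share over all genes. Over all compounds but vincristine, 2 of 362 calls were lost without ibuprofen (PSMA1 under 5-Fluorouracil and PSMC5 under PD166866), 118 were gained and 0 changed sign. As a background, each non-toxic compound was set against the other 15. No gene of the 38 was called for 15 of the 16, while ibuprofen had 7 higher and 3 lower, and 0 of either without its day 8 library. Over the 28 toxic compounds PSMC5 was called higher under 18 and PSMC1 under 16, the highest counts of the 38 genes. PSMA5 and PSMA7 followed at 13, and PSMC3IP and PSMD10 had the fewest at 2. Neither PSMC5 nor PSMC1 was called lower under any, nor were PSMB1, PSMB3, PSMB6, PSMC2, PSMC3 and PSMD13. The fits share non-toxic libraries, and genes outside the 38 were not counted this way. Some calls were small, such as PSMC5 under PD166866 at 0.07. Without ibuprofen and vincristine day 4 PSMC5 and PSMC1 were both called higher under 22. PSMB3 then followed at 20 and PSMA7 and PSMB1 at 18, and PSMC2 was called lower under 3. In the full fits PSMB8 was called higher under 9 and lower under 1 (PD166866). PSMB9 was higher under 8 and lower under 3, and PSMB10 higher under 7 and lower under 1. Without ibuprofen and vincristine day 4 PSMB8 was higher under 8 and lower under 1. PSMB9 was then higher under 8 and lower under 4, and PSMB10 higher under 7 and lower under 2.

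Maneb, a manganese-containing fungicide, had 1 library, of day 1, so its values have no replicate check. The median over the 38 genes was 0.30 in the maneb library, and 27 genes lay above the 16 non-toxic libraries of that day and 7 below, as did 9.28% and 69% of all genes tested. With centring 38 lay above and 0 below, against 54.4% and 32.1% of all genes. PSMC1 had 268 TPM in the maneb library against 210 to 235 TPM in non-toxic libraries. PSMB9 (1.199, at 2.82 TPM), PSMB3 (1.09, at 516 TPM) and PSMB1 (1.00, at 636 TPM) had the largest differences, and PSMD5 (-1.02), PSMD1 (-0.90) and PSMD2 (-0.71) were lowest. ZFAND2A had 123 TPM in the maneb library, against 18.2 to 25.6 TPM in non-toxic libraries.

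Centring moved the maneb median to 1.78, because the well expressed genes of this library lay 1.48 below their non-toxic level on the log2 scale, and its length slope was -0.382. The day 1 library of monosodium glutamate was alike in these measures, with a median of 0.26 (1.73 centred) and a length slope of -0.342, and there ZFAND2A was at 26.7 TPM. With length trend removed and centring the medians of the 38 genes were 1.61 in the maneb library and 1.53 in the glutamate library. The lengths are annotated medians, which may not be those of the expressed transcripts, so a length effect may remain after removal. The part of the length trend in the maneb values was not tested.

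In non-toxic cultures most proteasome genes declined, PSMB8 and PSMB9 fell and then came up after day 10, and PSMB10 rose over both spans. Relative to day 1, 30 genes were lower on day 10 (40.4% of all genes) and 3 higher (35.6% of all genes), with a median of -0.24. PSMC1 averaged 194 ± 8.43 TPM on day 10 (SD, n = 15) and 219 ± 7.87 TPM on day 1 (SD, n = 16), a difference of -0.18 ± 0.02 (adjusted p = 8.69e-15). PSMB8 (-1.56 ± 0.15), PSMD5 (-0.79 ± 0.07) and PSMC3IP (-0.77 ± 0.05) fell most, while PSMB10 (0.32 ± 0.08), PSMD8 (0.25 ± 0.03) and PSMB7 (0.05 ± 0.02, adjusted p = 0.0449) rose and PSMD10 (0.06 ± 0.03, adjusted p = 0.107) did not pass. Without the ibuprofen libraries 32 were lower and 3 higher.

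On day 39 relative to day 10, 31 genes were lower (34.9% of all genes) and 4 higher (43.6% of all genes), with a median of -0.27. PSMB8 averaged 29.6 ± 6.06 TPM on day 39 (SD, n = 14) and 1.16 ± 0.569 TPM on day 10 (SD, n = 15), with no overlap (3.84 ± 0.16, adjusted p = 1.37e-51). PSMB9 averaged 15.1 ± 4.08 TPM on day 39 and 0.225 ± 0.276 TPM on day 10 (3.70 ± 0.13), and PSMD10 averaged 122 ± 5.92 TPM on day 39 and 76.9 ± 4.34 TPM on day 10 (0.66 ± 0.03). PSMB10, the fourth, rose by 0.32 ± 0.09. PSMC5 (-0.77 ± 0.03), PSMD6 (-0.69 ± 0.04) and PSMA4 (-0.67 ± 0.03) fell most, and PSMC1 averaged 141 ± 5.26 TPM on day 39 (-0.46 ± 0.02, adjusted p = 1.02e-45). All 11 antigen presentation genes rose over the same span, HLA-B by 4.22, and all 8 chaperonin genes fell.

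**Figure D5:**
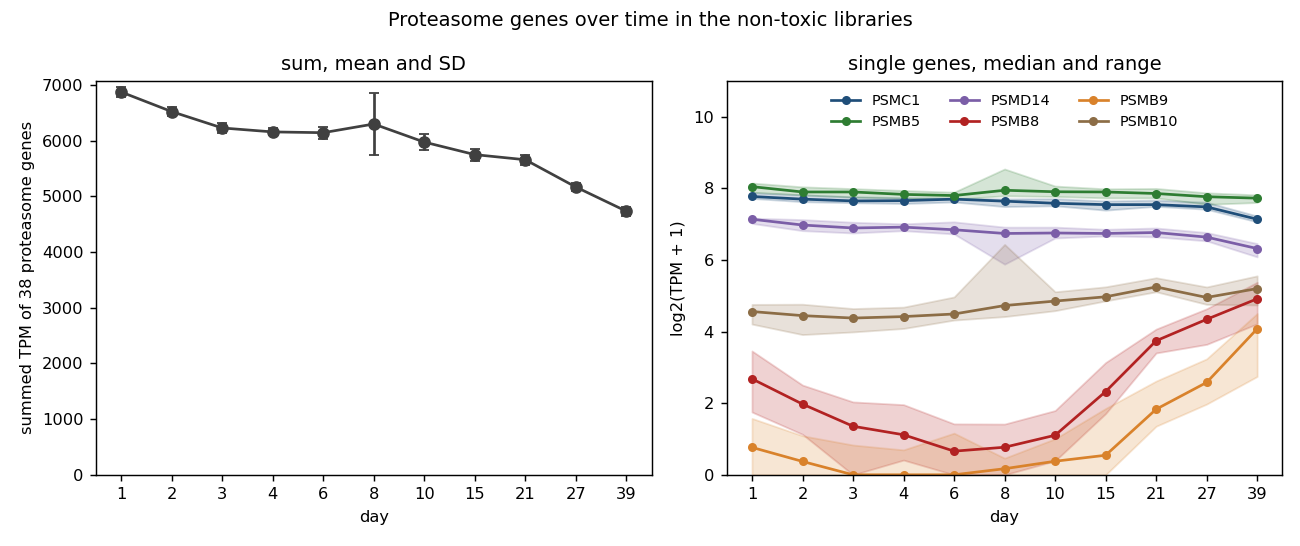
Left, summed level of the 38 genes (y axis, TPM; points, mean; bars, SD) in non-toxic libraries by day (x axis). Right, median (points) and range (shading) of 6 genes on the log2(TPM + 1) scale in the same libraries. The sum averages 6877 TPM on day 1 and 4735 TPM on day 39, PSMB8 and PSMB9 rise after day 10, and the wide spread on day 8 comes with the ibuprofen library.

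The cell types in these cultures changed over the same days. The summed astrocyte markers were 3623 to 5260 TPM on day 39 and 273 to 346 TPM on day 10, the mesenchymal markers 4237 to 8273 TPM on day 39 and 500 to 704 TPM on day 10, and the neuron markers 3910 to 4479 TPM on day 39 and 6622 to 7510 TPM on day 10. Markers of blood cells and microglia summed to at most 67.6 TPM on day 39 and 1.09 TPM on day 10, carried by CD74. The part of cell type in the course of the proteasome genes was not tested.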

How the data were processed

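Cells were lysed on the plate and the RNA was made into TruSeq libraries, per the labels' protocols. The authors deposited gene-level TPM, 1 column for each of 414 libraries, made with CASAVA 1.8.2, Bowtie 0.12.8 and RSEM 1.2.1 on hg19, per the submitters' processing notes. No counts are held here, so depth, and with it the precision of low values, is unknown, and a listed 0 can be a failed estimate.

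Groups, days and doses came from the labels. Genes at 1 TPM or more in at least 5 libraries were tested (16318), with limma 3.58.1 in R 4.3.3 on log2(TPM + 1) with an intensity trend, a factor for day and a random effect of compound (correlation 0.0212). Compounds with 3 or more libraries were each compared with same-day non-toxic libraries, and p-values were adjusted by Benjamini-Hochberg. Cadmium minus arsenic was a contrast in such a fit of both metals and the non-toxic libraries. Differences between days were fitted on the non-toxic libraries with no random effect. The fits were run on simulated data with independent noise of the non-toxic spread and the same planted difference on every day. That run cannot show that the SE and calls hold for compound libraries that vary from day to day. Centring used the 10328 genes that averaged 10 TPM or more. The length trend is the slope on log2 median transcript length (GENCODE annotation, all 38 genes and 93.1% of those 10328 genes). That median is over all annotated transcripts of a gene (698.5 bases for PSMD2 and 568 for PSMD5). The expressed transcripts may have other lengths, so removing the trend may leave a length effect in such genes.

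Named under arsenic and cadmium are PSMC1 and the highest and lowest gene of each role, and under arsenic also any called against the majority. Of the 13 genes called higher under cadmium, PSMA7, PSMD11 and PSMD13 are not named in its paragraphs. For other comparisons these are PSMC1 and the 3 highest and 3 lowest genes. Under arsenic PSMD11 and PSMD14, and the courses by day, were picked after their values were seen. The members, lists and motifs were chosen with earlier results of these data known. Alternatives were scaling, pseudocount, low-value filter, length trend, blocks, controls and left-out libraries.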

Additional observations from a re-analysis of the deposited data

Results flagged for a closer look

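In 4 of 20 compounds with 4 to 10 libraries, the library with the highest or lowest median difference of the 38 genes lay far from the others of its compound by Dixon's gap test, where chance gives about 1 in 20. The 25 compounds with fewer or more libraries were not tested.

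The vincristine library of day 4 had a median of -1.184, against 0.006 to 0.301 on the other days, and -0.137 after centring. The busulfan library of day 3 had 0.456, against 0.043 to 0.132 on the other days, with a length slope of -0.158. The cadmium library of day 6 had 0.116, against -0.125 to -0.063 on the other days, with a length slope of -0.140, and after centring it was 0.623. The library of day 10 of the non-toxic compound sorbitol had 0.043, against -0.019 to 0.007.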

How the results depend on the processing

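Cadmium had 35 genes higher and 0 lower with centring (median 0.635), and 33 and 0 with length trend removed and centring (median 0.586). The arsenic median was 0.9 and 0.831 in those settings. Cadmium minus arsenic had 7 and 7 genes higher, 5-Fluorouracil 16 and 16, dioxin 21 and 20 (7 with the length trend alone removed), and vincristine 21 and 21 higher with 11 and 11 lower. Day 10 minus day 1 had 5 higher when centred. Okadaic acid against DMSO libraries alone had 23 higher. Without vincristine day 4 and ibuprofen, vincristine had 15 higher and 0 lower, and compounds with at least 10 genes called numbered 18, against 11 beside cadmium and arsenic. Leaving out each vincristine library in turn gave 6 to 14 higher and 0 to 26 lower, and each busulfan library 19 to 29 higher. With each library left out in turn cadmium had 13 to 14 genes higher and arsenic 33 to 34.

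Some single genes changed sign. Under cadmium with centring PSMA5 was 0.069, PSMB1 0.628, PSMB10 0.593, PSMB2 0.278, PSMB5 0.004, PSMC6 0.216, PSMD10 0.432, PSMD2 0.107 and PSMD5 0.05. With length trend removed and centring PSMA5 was 0.091, PSMB1 0.644, PSMB10 0.54, PSMB2 0.377, PSMC6 0.146, PSMD10 0.367 and PSMD2 0.027. PSMC3IP under cadmium was -0.015 with the length trend removed and -0.09 against DMSO libraries. Leaving out each cadmium library gave -0.084 to 0.027 for PSMB1, -0.206 to 0.04 for PSMB10 and -0.21 to 0.094 for PSMC3IP. Under arsenic PSMA4 was -0.022 and PSMD10 -0.047 with the length trend removed, and -0.005 and -0.032 against DMSO libraries, while PSMD4 was 0.104 centred and 0.011 with both. The cause was not tested, beyond what each setting does by construction.

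Day served as the replicate block, since libraries of 1 day share it by label. With no replicate block, cadmium had 13 higher and 15 lower, arsenic 32 higher, okadaic acid 32 higher, and cadmium minus arsenic 3 higher and 32 lower. With compound as a fixed replicate block, day 10 minus day 1 had 3 higher and 29 lower, and day 39 minus day 10 had 4 and 31. The settings with length trend and centring together, the centred fits with a library left out, the left-out libraries of okadaic acid, busulfan, Cytosine Beta-D-arabinofuranoside and vincristine, the further okadaic acid settings and the day differences without ibuprofen were chosen after seeing the data. Without counts, the noise of low genes such as PSMB9 cannot be set apart from real spread.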
